A study of Aspergillus nidulans with 12 samples.

Results

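A pair of genes of nitrogen regulation in the mould Aspergillus nidulans, areA (AN8667) and nmrA (AN8168), were described here, and they were chosen by their locus identifiers, which gave 2 of the 7729 genes listed. AreA is a GATA-type zinc finger transcription factor that switches on genes for nitrate, amides, purines and other nitrogen sources when the preferred sources, ammonium and glutamine, are scarce. NmrA is a co-repressor that binds AreA and holds its activity down when ammonium or glutamine is plentiful. The fungus is a standard organism for this form of control, known as nitrogen metabolite repression. The names of both genes are those used by the study, and areA also carries its name in the RefSeq annotation.

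RNA was sequenced from mycelium of 4 strains with 3 libraries each, 12 libraries in all, grown in liquid minimal medium with nitrate and glucose. The kaeA19 strain carried a short in-frame deletion in kaeA (AN6569), the gene of a subunit of the KEOPS complex, which modifies transfer RNA, together with proA6, a paba marker and a biA marker. The labels give pabaA9 and number biA differently in each kaeA19 library, while the methods give pabaA12 and biA1. The control for kaeA19 was wt4, with proA6 pabaA9 biA1. The kaeA25 strain carried another short in-frame deletion in kaeA with proA6 adF9 yA2 phenA2, and its control wt5 had the same markers without the deletion. All 4 strains carried proA6, so no strain was free of mutations, and each mutant was 1 strain. Per the methods, the 3 libraries of a strain came from separate biological experiments.

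The data were 2 tables, 1 for kaeA19 with wt4 and 1 for kaeA25 with wt5. Each table held a mean of normalized fragments per gene that pooled mutant and control, together with the authors' own mutant-against-control statistics, which were not used. The levels below are therefore the authors' means over the mutant and control libraries of a table. They have no SD, no n and no test, and they say nothing of whether a kaeA deletion changed areA or nmrA. The tables used here do not give the depth of single libraries. The means summed to 22310307 normalized fragments in the kaeA19 and wt4 table and to 21992765 in the kaeA25 and wt5 table. There were 265 genes listed at 0 in the kaeA19 and wt4 table and 181 in the kaeA25 and wt5 table. In mycelium, fewer hyphae expressing a gene and less of its RNA per hypha cannot be told apart.

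Both genes were expressed above the middle of the range in both tables. areA had a mean of 3336 normalized fragments in the kaeA19 and wt4 table and 2763 in the kaeA25 and wt5 table. nmrA had a mean of 1700 normalized fragments in the kaeA19 and wt4 table and 2781 in the kaeA25 and wt5 table. areA was thus the higher of the pair in the kaeA19 and wt4 table, whereas in the kaeA25 and wt5 table the means of both genes were nearly equal. areA took 0.0150% of the summed means in the kaeA19 and wt4 table and 0.0126% in the kaeA25 and wt5 table. nmrA took 0.00762% in the kaeA19 and wt4 table and 0.0126% in the kaeA25 and wt5 table.

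A longer gene gives more fragments per transcript, so levels of different genes were compared per kb of gene span. The span, introns included, was 2692 bases for areA on chromosome III and 1127 bases for nmrA on chromosome II, in the RefSeq annotation of assembly ASM1142v1. The authors counted on another annotation. Per kb, areA had 1239 normalized fragments in the kaeA19 and wt4 table and 1026 in the kaeA25 and wt5 table. nmrA had 1508 per kb in the kaeA19 and wt4 table and 2467 per kb in the kaeA25 and wt5 table. The median gene above 0 had 646 per kb in the kaeA19 and wt4 table and 608 per kb in the kaeA25 and wt5 table. Per kb, areA stood above 72.1% of the genes in the kaeA19 and wt4 table and above 68.0% in the kaeA25 and wt5 table. nmrA stood above 77.3% of the genes in the kaeA19 and wt4 table and above 86.8% in the kaeA25 and wt5 table.

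Within a table, the co-repressor gene was thus listed above the activator gene once length was taken into account. The level of nmrA per kb was 1.22 times that of areA in the kaeA19 and wt4 table and 2.40 times in the kaeA25 and wt5 table. Without length correction nmrA was at 0.51 times areA in the kaeA19 and wt4 table and at 1.01 times in the kaeA25 and wt5 table, so the order of the pair within a table rests on the length correction. The change of that ratio between the tables does not: nmrA relative to areA was at -0.98 on the log2 scale in the kaeA19 and wt4 table over the kaeA25 and wt5 table, a 1.97-fold difference in which the lengths and the scaling of the tables cancel.

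Other regulators of nitrogen use were set beside areA and nmrA. They were areB, a GATA factor that acts as a repressor in nitrogen control, tamA, a co-activator of AreA, meaB, a bZIP factor that activates nmrA, nirA, the nitrate-specific activator, and AN2366, which the study describes as a protease acting on NmrA. In the kaeA19 and wt4 table the order of levels per kb was areB at 1717, nmrA at 1508, AN2366 at 1258, areA at 1239, meaB at 1166, tamA at 1062 and nirA at 606. In the kaeA25 and wt5 table it was nmrA at 2467, areB at 1800, meaB at 1059, areA at 1026, AN2366 at 1002, tamA at 790 and nirA at 571. areA held the fourth place of the 7 in both tables, with AN2366 and meaB on either side at levels close to its own, and nmrA held the second place in the kaeA19 and wt4 table and the first in the kaeA25 and wt5 table. In both tables tamA and nirA were listed below areA and nmrA, and nirA was also below the median gene. With no spread over libraries, no pair of neighbours in these orders can be said to differ.

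**Figure D1:**
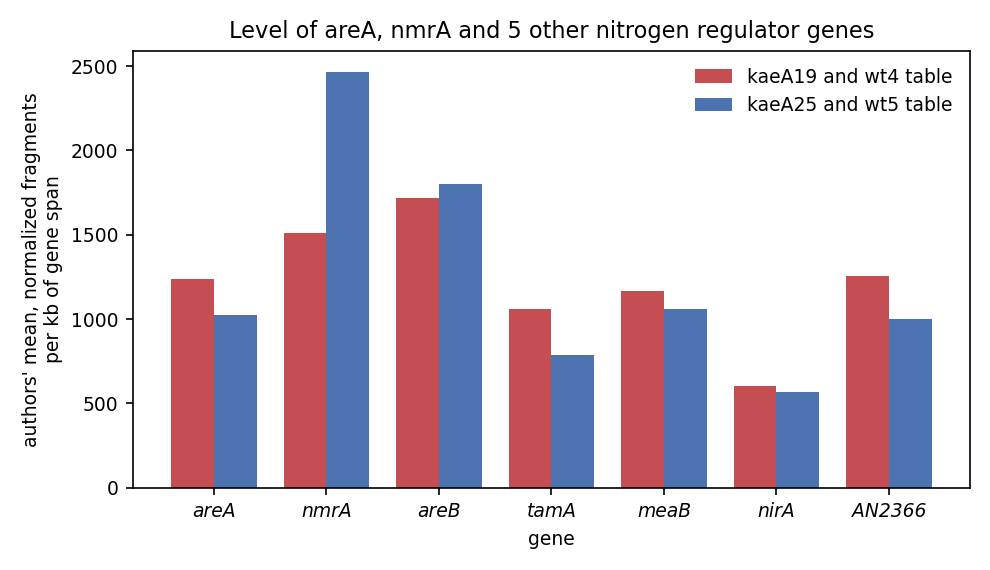
Authors' mean of normalized fragments per kb of gene span (vertical axis) for areA, nmrA and 5 other nitrogen regulator genes, with the kaeA19 and wt4 table in red and the kaeA25 and wt5 table in blue. Bars pool mutant and control libraries and have no error bars. The bars of nmrA stand at 1508 and 2467, and no other gene shown differs as much between the tables.

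The level of a gene in the kaeA19 and wt4 table was then set against its level in the kaeA25 and wt5 table, as a log2 ratio with the median gene at 0. The median was taken over the 6438 genes with a mean of 100 or more in both tables, and it lay at 0.05 before centring. The tables were normalized separately, and their strains differ in the kaeA allele and in the markers, so allele, markers and scaling cannot be told apart in this ratio. The ratio of areA was 0.22, a 1.21-fold difference as listed, and 42.9% of the genes had a ratio farther from 0. The ratio of nmrA was -0.76, and 8.08% of the genes had a ratio farther from 0. As listed, nmrA was 1.64-fold higher in the kaeA25 and wt5 table. The middle 90% of genes ran from -0.61 to 0.73. areA lay inside that range, while nmrA lay below it, with 215 genes below nmrA and 6222 above.

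**Figure D2:**
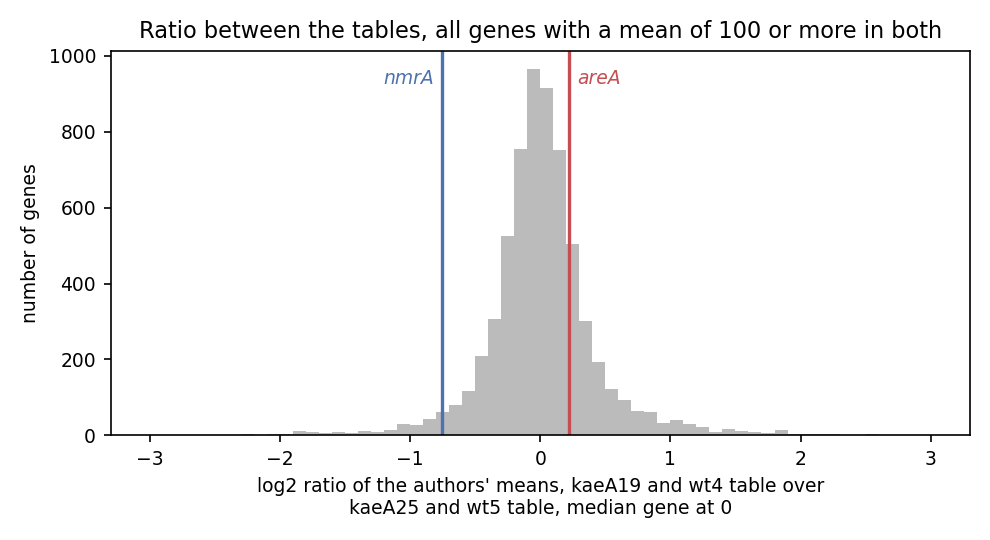
Number of genes (vertical axis) by log2 ratio of the authors' means, kaeA19 and wt4 table over kaeA25 and wt5 table, with the median gene at 0 (horizontal axis, bins of 0.1), for genes with a mean of 100 or more in both tables. The lines mark nmrA at -0.76, in the lower tail, and areA at 0.22, within the bulk, and 11 of 6438 genes lie outside the axis.

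The regulator genes beside areA and nmrA differed little between the tables. Their ratios were 0.38 for tamA, 0.28 for AN2366, 0.09 for meaB, 0.04 for nirA and -0.12 for areB, with a median of 0.09, against 0 over all genes. All 5 lay inside the middle 90% of genes, and meaB and nirA changed sign when the ratio was centred on housekeeping genes. The 4 housekeeping genes themselves had ratios from -0.23 to 0.30. For scale, kaeA itself, with 618 normalized fragments per kb in the kaeA19 and wt4 table and 750 in the kaeA25 and wt5 table, had a ratio of -0.33.

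The genes that take up and assimilate nitrate and ammonium had ratios opposite in sign to that of nmrA. AreA is known to activate many of them, but a link between these ratios and nmrA or areA was not tested. Allele and markers also differ between the tables. All 9 genes were higher in the kaeA19 and wt4 table than in the kaeA25 and wt5 table relative to the median gene. By the centring, as many of all genes lie above the median gene as below it. The median ratio of the 9 was 1.23. The sign held under each of the scalings tried, though glnA came to 0.02 when centred on housekeeping genes. The nitrate transporter genes had ratios of 2.58 for nrtB and 1.82 for crnA. The nitrate reductase gene niaD had 1.24 and the nitrite reductase gene niiA had 0.85. The ammonium transporter genes mepA and meaA had 2.08 and 1.23. The genes of ammonium assimilation were nearer 0, with 0.50 for the glutamate synthase gene gltA, 0.43 for the glutamate dehydrogenase gene gdhA and 0.17 for the glutamine synthetase gene glnA. The ratio of areA, 0.22, lay between those of glnA and gdhA.

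In level, most of these genes stood above areA and nmrA. Their median was 10241 normalized fragments per kb in the kaeA19 and wt4 table and 4225 in the kaeA25 and wt5 table. Of the 9, 9 were above areA and 8 above nmrA in the kaeA19 and wt4 table, and 7 were above areA and 6 above nmrA in the kaeA25 and wt5 table. The gene below nmrA in the kaeA19 and wt4 table was nrtB, at 1480 per kb, and it had 239 per kb in the kaeA25 and wt5 table, which was below areA.

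Genes for other nitrogen sources showed no common sign. Of 8, 5 had a ratio above 0 and 3 below, with a median of 0.32 and a range from -2.08 to 2.02. The 3 below 0, named here after their values were seen, were the purine genes uapA, a uric acid and xanthine transporter, at -2.08, uaZ, urate oxidase, at -1.51, and azgA, a purine transporter, at -0.04, whose sign turned with no centring. The 5 above 0, also named after their values were seen, were amdS, acetamidase, at 2.02, ureA, a urea transporter, at 1.62, gabA, a permease for gamma-aminobutyrate, at 1.58, agtA, an acidic amino acid transporter, at 0.45, and gatA, a gamma-aminobutyrate transaminase, at 0.19. Of these, agtA and gatA lay inside the middle 90% of genes. The ratio of nmrA was below 0, as were 3 of these 8, while the other 5 and the nitrate and ammonium genes were above 0. With the median gene at 0, as many of all genes lie below 0 as above it. Only the strains of the kaeA25 and wt5 table carried the markers adF9, yA2 and phenA2. Only those of the kaeA19 and wt4 table carried paba and biA markers. Whether these signs are linked to each other or to a marker was not tested.

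**Figure D3:**
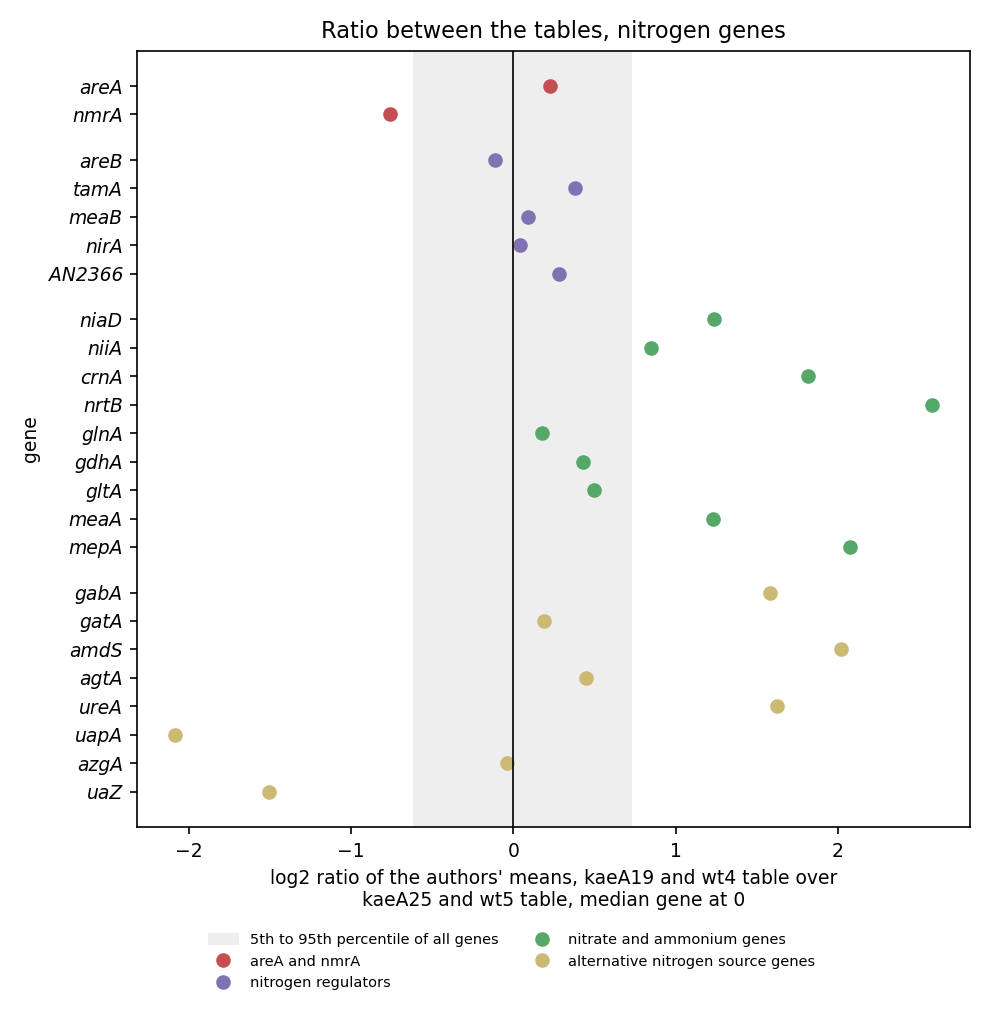
Log2 ratio of the authors' means, kaeA19 and wt4 table over kaeA25 and wt5 table, with the median gene at 0 (horizontal axis), for areA and nmrA and the genes of 3 nitrogen lists (vertical axis), 1 point a gene. The grey band holds the middle 90% of genes, from -0.61 to 0.73. nmrA lies left of the band at -0.76, areA lies in it at 0.22, and the 9 nitrate and ammonium genes lie right of 0. Of these, gltA, gdhA and glnA lie in the band.

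The genes most like areA and nmrA in their pair of levels were found by straight-line distance between log2 means over the 2 tables, with no length correction. Nearest to areA were AN1333, with 3308 normalized fragments in the kaeA19 and wt4 table and 2767 in the kaeA25 and wt5 table, then AN4947 and AN4731, at distances of 0.012, 0.020 and 0.025. Nearest to nmrA were AN0066, with 1679 in the kaeA19 and wt4 table and 2714 in the kaeA25 and wt5 table, then AN9356 and AN10472, at distances of 0.039, 0.048 and 0.081. The distances were larger around nmrA. With 2 values a gene, this likeness is a description of levels only.

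The neighbours of areA and nmrA on the chromosome, named after their values were seen, differed in how near their levels lay. Beside areA, AN8666 had a mean of 112 in the kaeA19 and wt4 table and 79.5 in the kaeA25 and wt5 table, far below areA. On the other side of areA, AN8668 was not among the genes listed, so it had no value. Beside nmrA, AN8167 had 2849 in the kaeA19 and wt4 table and 610 in the kaeA25 and wt5 table, a ratio of 2.18, above 99.7% of the genes. On the other side of nmrA, AN8169 had 1470 in the kaeA19 and wt4 table and 3019 in the kaeA25 and wt5 table, a ratio of -1.09, above 1.65% of the genes. Its means were near those of nmrA, 1700 in the kaeA19 and wt4 table and 2781 in the kaeA25 and wt5 table, and both ratios lay below the middle 90% of genes. The genes flanking nmrA thus lay at opposite ends of the range. In the RefSeq annotation neither overlaps nmrA. The sources used here do not say whether fragments were counted by strand.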

How the data were processed

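Per the labels and methods, ribosomal RNA was depleted and paired-end libraries were sequenced. The authors aligned reads with TopHat2 (version 2) and Bowtie2 to the AspGD FGSC A4 genome, kept correctly oriented pairs and counted fragments per gene. The deposited value used here is a normalized signal, the mean of normalized fragments per gene, read as the mean over the 6 libraries of a comparison, which the file headers do not state. The methods name edgeR for the authors' comparisons, while the columns per the file headers are those of DESeq2. The other 5 columns of each table hold the authors' log2 fold changes, standard errors, statistics, p-values and adjusted p-values of mutant against control, and were not used.

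Ranks, ratios and distances were computed in Python 3.11.15 with numpy 2.4.6 and pandas 2.3.3, drawn with matplotlib 3.10.9 and tested on simulated data. Ranks were taken among genes with a mean above 0. Gene spans came from RefSeq (ASM1142v1), where 7332 of 7729 identifiers (94.9%) matched, and were used only as lengths. Named genes were areA, nmrA, the genes of the lists of nitrogen regulators and of nitrate and ammonium genes, and the 3 genes nearest each of the pair, with kaeA as a scale. The genes for other nitrogen sources and the chromosome neighbours were named after their values were seen. The genes and lists were chosen with earlier results of these data known. Alternatives were other centrings, other gene filters and no length correction. Coding lengths and promoter sequences were not used here, so gene span took the place of coding length and a planned count of GATA motifs was not made.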

Additional observations from a re-analysis of the deposited data

How the results depend on the processing

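Of 22 values under alternative settings, 14 moved by less than 0.1 on the log2 scale or 5 percentile points. A change of centring shifts every gene by the same amount, so whether it moved a ratio was not particular to areA or nmrA. The 4 housekeeping genes had ratios from -0.23 to 0.30, with a median of 0.15. Centring on them gave ratios between the tables of 0.0692 for areA and -0.91 for nmrA, with both signs kept. No length correction placed areA above 81.3% of genes in the kaeA19 and wt4 table and above 78.7% in the kaeA25 and wt5 table, and nmrA above 65.1% and 78.8% of genes in the same tables. It put nmrA relative to areA at -0.97 on the log2 scale in the kaeA19 and wt4 table, the reverse of 0.28 per kb, and at 0.0091 in the kaeA25 and wt5 table, against 1.27 per kb. Gene span, planned as an alternative to coding length, is the length used throughout. No library could be left out and no paired analysis was possible because the tables hold no values per library. For the same reason no error can be set beside any level. Neither the difference of areA nor the larger one of nmrA can be told from variation between libraries. The same holds for every other gene named.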
